A study of Mus musculus with 55 samples.

Results

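Mature B cells of mouse bone marrow, sorted as B220-high cells that carry surface IgM, were compared with each of 4 earlier B lineage populations from the same organ. All arrays titled as mature B cells were taken, apart from 1 whose values were identical to those of another mature B array. This gave 11 of the 54 arrays kept, from 5 of 26 preparations. The preparations were 5 of mature B cells (sorts 1, 3, 8, 9 and 11), 6 of pre-BI cells (sorts 1, 2, 3, 8, 9 and 10), 5 of large pre-BII cells (sorts 1, 2, 8, 9 and 10), 5 of small pre-BII cells (sorts 1, 3, 8, 9 and 10) and 5 of immature B cells (sorts 1, 2, 8, 9 and 11). Pre-BI cells had been sorted for B220 and c-kit, pre-BII cells for B220 and CD25 in the absence of surface immunoglobulin with a further division into large and small cells, and immature B cells for low B220 with surface IgM. Each preparation was hybridised to 2 complementary oligonucleotide array designs, called here the first set and the b set. The labels give no strain, age or treatment. They leave unsaid whether preparations stem from different animals, and p-values here rest on the spread between preparations, which may be technical.

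B cells are made in the bone marrow from pro-B and pre-B cells, which divide and rearrange their immunoglobulin genes, and become immature B cells once a complete IgM is placed on the surface. Cells that leave for the spleen mature there, gain IgD, the complement receptor CD21 and the low-affinity IgE receptor CD23, and raise the class II molecules with which they present antigen to T cells. Mature B cells then recirculate through blood, lymphoid organs and bone marrow, guided by chemokine receptors and integrins. How many of the mature cells sorted here were recirculating cells is not stated in the labels.

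Levels are given as normalised intensities in arbitrary units, one per preparation, on the scale of 1 array set, and can be compared between populations but not between probe sets. Values up to 2 robust standard deviations of the negative readings (251 for the first and 319 for the b set) were treated as not above noise. Differences of single genes are between means of log2 values that were first raised to this limit, and a fold is called a lower bound where the dimmer population never exceeded it. A transcript was called higher, or lower, than every other population when all 4 comparisons of limma's moderated test had a Benjamini-Hochberg adjusted p under 0.05 and the same sign, and the largest of the 4 adjusted p-values is the one printed. Before normalisation the 2% trimmed means of the arrays spread 5.6-fold for the first set and 4.23-fold for the b set. An 18S ribosomal RNA control on the first set read 156 to 18619 on the arrays of sorts 1 to 3 and -224 to 68 on those of sorts 8 to 11. The mature B arrays among them read 307 to 2249 and -77 to 51. Every population was present in both ranges of sorts.

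The genes of the sort gates were bright in the mature B preparations. Ptprc, which encodes CD45 and its B220 form, averaged 9174 ± 264 in mature B cells, against 2928 ± 669.6 in the pre-BI, 2745 ± 434 in the large pre-BII, 4464 ± 599 in the small pre-BII and 8324 ± 911 in the immature preparations (SD, n = 5, 6, 5, 5 and 5). It was higher in mature B cells than in the 3 pre-B populations and did not pass against immature B cells (limma adjusted p = 0.941), whose gate differs from the mature one in the amount of surface B220. Ighm, the IgM heavy chain, averaged on its brightest probe set 12804 ± 489.9 in mature B cells and 14266 ± 1923 in immature B cells (SD, n = 5 each) and was not called in the 4-way comparison. Cd3d, Cd3e, Cd3g, Thy1 and Cd8a of T cells, Sdc1 and Prdm1 of plasma cells, and Mpo, Elane, Ltf and Camp of granulocytes exceeded the noise limit in 0 of 5 mature B preparations. Of the whole lists, 14 of 16 tested T and NK cell genes, 3 of 6 plasma cell genes and 7 of 17 myeloid genes, each by its brightest tested probe set, were under the limit in every mature B preparation, and the others exceeded it in 1 or more. Lyz2, a myeloid lysozyme, averaged 3700.1 ± 535 in mature B cells, against 1357 to 8972 across the other preparations, and Hba-a1, an alpha globin, averaged 11208 ± 1729, against 4168 to 13058. The summed levels of the 17 tested myeloid genes were 10761 to 14188 in mature B cells and 5743 to 28044 in the other preparations. None of the genes called in mature B cells belonged to the lists of T, plasma, myeloid, erythroid or dendritic and stromal cells, and the part of other cells in the results was not tested.

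In mature B cells 42 of 10229 tested probe sets were higher than in every other population, which is 0.411% of those tested, and 28 were lower than in every other population, which is 0.274%. The 42 held 32 probe sets with 1 gene symbol, from 29 genes, and 10 without a symbol in the tables used here. The 28 held 26 with a symbol, from 24 genes, and 2 without. Of these genes 16 had several probe sets, and for 15 of the 16 not all of them were called. Among the genes that were higher were 5 of antigen presentation by class II molecules, 4 of the mature B cell surface, the homing genes Ccr7 and Itgb7, and Gimap4. Among those that were lower were the precursor genes Vpreb3, Myb and Cd93. Levels of all 5 mature B preparations lay above all 21 others for 32 of the 42, and below all 21 others for 22 of the 28. Over all tested probe sets such separation was found for 57 with mature B cells higher (0.557%) and 30 with mature B cells lower (0.293%). Since RNA of whole preparations was measured, a lower level can come from fewer cells with a transcript or from less of it per cell, and these cannot be told apart.

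Among the higher probe sets Gimap4 had the largest difference to its nearest population. It encodes a GTPase of the immunity-associated family, which acts in the survival of lymphocytes. Its level was 3135, 3532, 3556, 4598 and 3669 in the 5 mature B preparations. The pre-BI preparations read 506, 408, 475, 577, 288 and 715. All 15 large pre-BII, small pre-BII and immature B preparations stayed under the noise limit, the highest at 203. The order was thus mature B cells, pre-BI cells and then 3 populations that cannot be ranked, and no preparation of any other population came near the mature ones. The difference to the nearest population, pre-BI, was 2.95 ± 0.20 on the log2 scale (SE), a 7.71-fold difference, and it was at least 14.6-fold to immature B cells (limma adjusted p = 8.53e-10). The family member Gimap1 read 512, 1158, 1486, 1560.0 and 1225 in mature B cells, against -62.5 to 936 in the other preparations, and was not called (adjusted p = 0.705). With the noise limit as the floor of the fit Gimap1 was called (adjusted p = 0.0192), though its values overlapped.

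The IgE receptor gene Fcer2a (CD23) was among the surface genes called higher. Mature B cells read 7367, 4409, 6178, 6743 and 7728, and immature B cells read 1218, 2176, 1019, 1403 and 1871. Of the 16 preparations of pre-B cells, 1 of large pre-BII cells, at 286, was above the noise limit. The groups did not overlap, and mature B cells were 4.30-fold above immature B cells (log2 difference 2.11 ± 0.25 SE, adjusted p = 0.00108). The Fcer2a call was lost on the values as deposited, without normalisation, and with a floor at the 25th percentile. Cr2, which encodes the complement receptors CD21 and CD35, read 428, 356, 859.6, 809.9 and 703 in mature B cells and no higher than 241 in any other preparation. On this probe set Cr2 was above the noise limit in mature B cells alone, and its difference was at least 1.87-fold (adjusted p = 0.0238). The call for Cr2 was lost in 5 of the 26 fits that each left out 1 preparation (adjusted p up to 0.0966, without immature B sort 9), those without mature B sorts 8, 9 or 11 or immature B sorts 2 or 9, and its other probe sets, both of the first set, stayed under the noise limit in the mature B preparations, while 1 of them read 273 in 1 pre-BI preparation, above the limit.

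Another surface gene was Cd55, the decay-accelerating factor that protects cells from complement. It read 2153, 1269, 3276, 2715 and 2305 in mature B cells, 424, 301, 476, 334 and 287 in small pre-BII cells and 368, 359, 631, 384 and 585 in immature B cells, and stayed under noise in pre-BI and large pre-BII cells. The mature level was 4.96-fold that of immature B cells (adjusted p = 1.00e-05). Ms4a4c, a 4-transmembrane protein of the family that includes CD20, read 601, 454, 949, 1010.3 and 793 in mature B cells and no higher than 141 elsewhere, at least 2.90-fold (adjusted p = 2.22e-08). Its relative Ms4a6b read 186 to 409 in mature B cells, above the limit in 3 of 5, and was also called (adjusted p = 0.00601); it is named outside the naming rule. Of 18 tested genes of the mature B surface list, 4 were higher in mature B cells than in every other population, Fcer2a, Cr2, Cd55 and Ms4a4c, and 1 was lower, Cd24a, against 29 higher and 24 lower of all 5027 tested genes with 1 symbol. RefSeq places 3 coding genes between Ms4a4c and Ms4a6b, and array probes for such close relatives may read more than 1 of them.

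**Figure D1:**
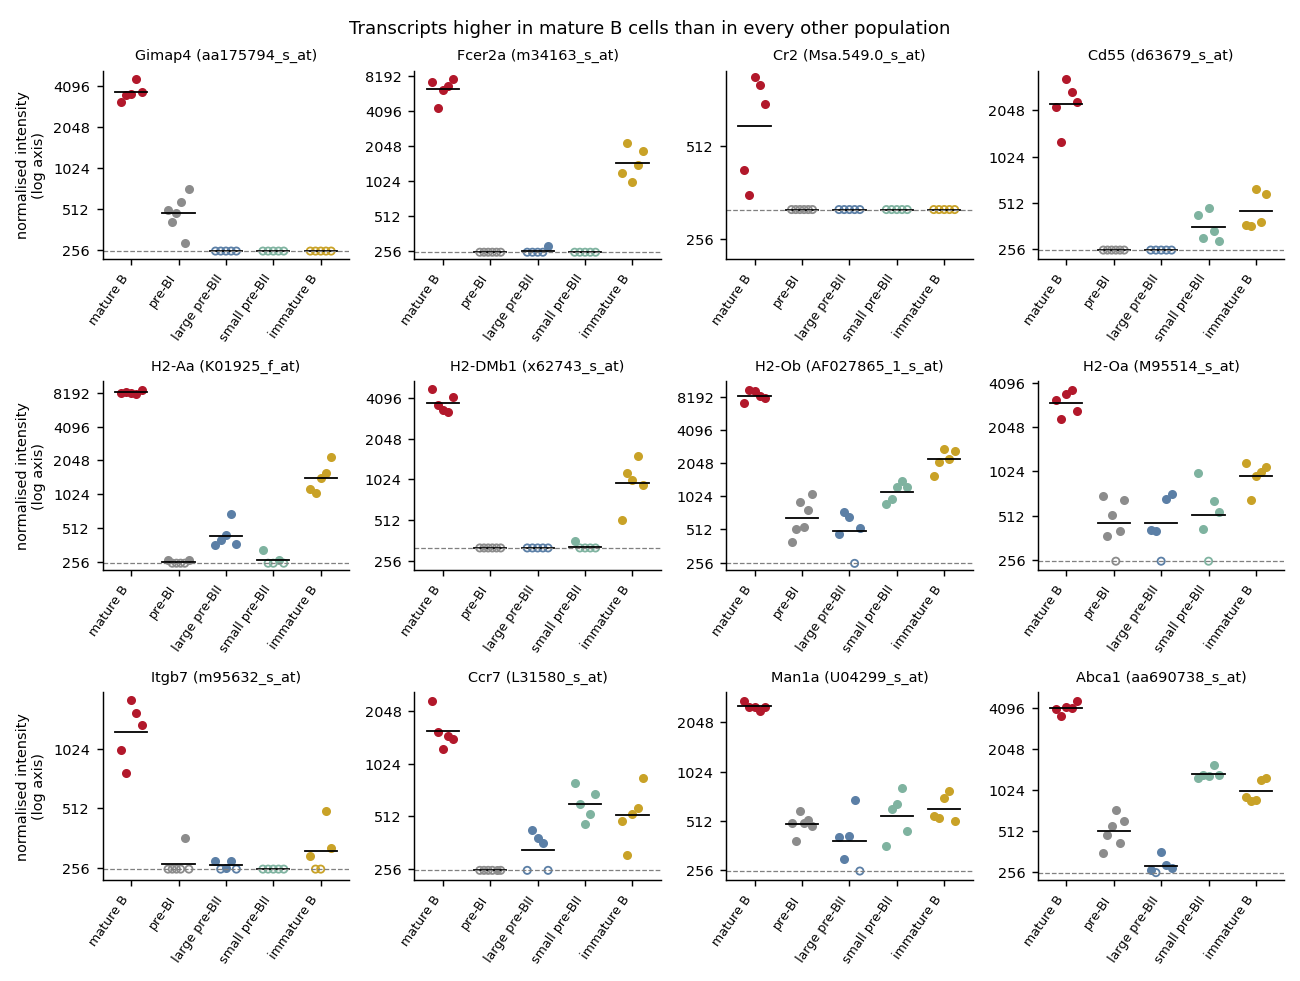
Normalised intensity (log axis) of 12 transcripts called higher in mature B cells than in every other population, in each preparation of the 5 populations. Filled points are above the noise limit (dashed line), open points are values raised to it, and black bars are means of the log2 values. The 5 mature B points lie above all other points in each of these 12 panels, Cr2 is above the limit in mature B cells alone, and Fcer2a and the class II genes have immature B cells as the second highest population.

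Class II antigen presentation was the gene group with the most members called. Class II molecules are pairs of an alpha and a beta chain, and peptides are loaded onto them with the help of the DM pair, which is in turn modulated in B cells by the DO pair. Of 12 tested genes of the group, 5 were higher in mature B cells than in every other population: H2-Aa, H2-DMb1, H2-Ob, H2-Oa and Ciita. Of all 5027 tested genes with 1 symbol, 29 were. Against each of small pre-BII, large pre-BII and pre-BI cells, 11 of the 12 were higher, and the median log2 differences of the 12 were 4.72 to pre-BI, 3.72 to large pre-BII, 3.33 to small pre-BII and 1.62 to immature B cells. The same medians over all 5027 genes were 0.04, 0.05, -0.01 and 0.00, and of these genes 304, 349, 154 and 44 were higher in mature B cells in the same 4 comparisons.

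H2-Aa encodes the alpha chain of the I-A class II molecule. Its leading probe set read 8051, 8266, 8190.4, 7944 and 8641 in mature B cells and 1151, 1064, 1426, 1572 and 2212 in immature B cells. Large pre-BII cells read 362 to 689, and pre-BI and small pre-BII cells were above noise in 2 preparations each. The 5 mature values lay close together, and no other preparation exceeded 2212. The difference to immature B cells was 5.73-fold (log2 2.52 ± 0.19 SE, adjusted p = 5.12e-05), and to pre-BI cells 31.9-fold. Another 3 H2-Aa probe sets were called with differences of 4.33 to 4.64-fold to immature B cells, and the call of 1 of these was lost without immature B sort 1 or 2 (adjusted p up to 0.0728). The fifth, whose mean was 19855 in mature B cells, did not pass against immature B cells (adjusted p = 0.471). Its mature values in sorts 1 and 11 stood at the top of the normalised scale of the first set, 21829, and no normalised value of that set could be higher. Its difference to immature B cells was 1.86-fold, and how the top of the scale affects it was not tested.

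The genes for peptide loading also had immature B cells as the second highest population. H2-DMb1, a beta chain of DM, read 4743, 3626, 3310.1, 3239 and 4168 in mature B cells and 512, 1136, 1006, 1516 and 935 in immature B cells, with 1 of 16 pre-B preparations above noise, at 359. H2-Ob, the beta chain of DO, read 7279, 9572, 9379.9, 8473 and 8051 in mature B cells, against 1576, 2120.3, 2760.3, 2251 and 2659 in immature B cells, and its means in small pre-BII, large pre-BII and pre-BI cells were 1151, 504 and 699. H2-Oa, the alpha chain of DO, read 3120.1, 2337, 3439, 3662 and 2617 in mature B cells, against 1162, 654, 948, 1007 and 1099.9 in immature B cells. Mature B cells exceeded immature B cells 3.92-fold for H2-DMb1 (adjusted p = 0.0021), 3.81-fold for H2-Ob (adjusted p = 0.00141) and 3.13-fold for H2-Oa (adjusted p = 0.0476). For none of the 3 did mature B preparations overlap with any other. The call for H2-Oa was nevertheless at the edge of the threshold and was lost in 19 of 26 fits without 1 preparation (adjusted p up to 0.146). Near-identical DM beta genes could contribute to the H2-DMb1 signal.

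Ciita, the transactivator that switches on class II genes, was called from low signals. It read 333, 297, 239, 274 and 201 in mature B cells, above the noise limit in 3 of 5, and at most 215 elsewhere, a difference of at least 1.11-fold (adjusted p = 0.00146). Its level outside mature B cells was not detectable on these arrays. The Ciita call was lost on the values as deposited, without normalisation, and with a floor at the 25th percentile. Too few preparations exceeded the noise limit for Ciita to be tested with that limit as the floor. Cd74, the invariant chain that escorts class II molecules, was not called: it read 18071, 18766, 21583, 21583 and 21583 in mature B cells and 21583, 17449.8, 13058, 21583 and 20048 in immature B cells (adjusted p = 0.992). In 3 mature and 2 immature preparations it stood at 21583, the highest value of the normalised b set, so that a difference between these cells could not be measured there. Against small pre-BII, large pre-BII and pre-BI cells the Cd74 difference was 5.002-fold, 14.4-fold and 24.3-fold, with 3 mature values at the top of that scale.

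Several genes of the same group were separated from every other population without passing the 4-way rule, because of the comparison with immature B cells. H2-Ab1, the beta chain of I-A, read 10388, 8033, 10859, 13477 and 12162 in mature B cells and 1866, 1576, 3490.4, 3845 and 3845 in immature B cells (3.96-fold, adjusted p = 0.787). H2-Eb1, the beta chain of I-E, read 15541, 13079, 14965, 14373 and 16826 in mature B cells and 3063, 5407, 4524, 3789 and 5593 in immature B cells (3.41-fold, adjusted p = 0.813). A second H2-Eb1 probe set averaged 1286 in mature and 722 in immature B cells. Its mature values (990 to 1418) overlapped other preparations, which reached 1032. It was not called in the fit (adjusted p = 0.0802) and was with the noise limit as the floor (adjusted p = 0.0399). H2-DMa, the alpha chain of DM, read 7858, 3765, 2119.6, 2432 and 3693 in mature B cells and 623, 1150.4, 859.6, 346 and 1564 in immature B cells (4.42-fold, adjusted p = 0.161). On the 3 probe sets given by preparation the mature and immature values were far apart. Each of these had pre-B values near or under 0. The fit's floor on the b set (6.89) places such values far below the noise limit on the log2 scale. With the noise limit as the floor the adjusted p-values were 5.38e-05 for H2-Ab1, 6.24e-08 for H2-Eb1 and 1.96e-05 for H2-DMa, and all were called. These genes, and those of the next paragraph, were singled out after their values had been seen.

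The same outcome was found for IgD and for receptors of mature B cells. Ighd, the heavy chain of IgD, read 1019, 754, 701, 1023 and 987 in mature B cells and 205, 218, 340.0, 96.6 and 128 in immature B cells, with 338 as the highest of 16 pre-B values. It did not pass against immature B cells in the fit (adjusted p = 0.357), and did with the noise limit as floor (adjusted p = 2.03e-09, 2.74-fold). Cxcr5, the chemokine receptor that leads B cells into follicles, read 2488, 1081, 1069.6, 536 and 589 in mature B cells and 485, 250.2, 169, 119 and 407 in immature B cells (adjusted p = 0.426 in the fit and 4.50e-04 with the noise limit as floor). Ltb, the membrane anchor of lymphotoxin, averaged 4299.8 ± 1358 in mature B cells and 1503 ± 631 in immature B cells (SD, n = 5 each), with adjusted p = 0.115 in the fit and 0.00105 with that floor. Il4ra, a chain of the interleukin-4 receptor, averaged 3446 ± 513 and 1601 ± 539 in the same 2 populations, with adjusted p = 0.152 and 0.00558. In all, that floor called 69 of 5310 tested probe sets higher and 22 lower in mature B cells, of which 35 and 19 were among the 42 and the 28, and 12 of the 25 separated probe sets that the fit did not call as higher were called with it. Of the 42, 7 were too dim to be tested with that floor, and the other 35 kept their call. The floor also took calls away, since 9 of the 28 were tested with it and not called. Among the 9 were Ptgr1 (adjusted p = 0.0826), Lgals1 (0.0658), Klhl9 (0.109), Nudt1 (0.684) and the Marcks probe set aa546670_s_at (0.817).

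The 4 class II genes called from bright signals lie close together in the genome and share a sequence element upstream, so their start regions are shown here. RefSeq places 3 coding genes between H2-Oa and H2-DMb1, 4 between H2-DMb1 and H2-Ob, and 1 between H2-Ob and H2-Aa. The windows are the 150 bases before each gene start in RefSeq (build GRCm38.p6), written 5′ to 3′ on the strand of the gene. Capitals mark GATTGG, whose other strand reads CCAATC, the core of the Y box to which the factor NF-Y binds in class II promoters.
H2-Oa (chr17:34092229-34092378, plus strand): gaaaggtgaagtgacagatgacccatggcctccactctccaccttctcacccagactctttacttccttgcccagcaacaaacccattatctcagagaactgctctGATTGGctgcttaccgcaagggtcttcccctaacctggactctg
H2-DMb1 (chr17:34153041-34153190, plus strand): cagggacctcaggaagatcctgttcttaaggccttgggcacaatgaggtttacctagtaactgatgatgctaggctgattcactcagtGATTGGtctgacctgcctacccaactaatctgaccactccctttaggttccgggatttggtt
H2-Ob (chr17:34238755-34238904, plus strand): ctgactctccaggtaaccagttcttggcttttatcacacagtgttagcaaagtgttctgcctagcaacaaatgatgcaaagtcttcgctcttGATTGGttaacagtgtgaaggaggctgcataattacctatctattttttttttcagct
H2-Aa (chr17:34287824-34287973, minus strand): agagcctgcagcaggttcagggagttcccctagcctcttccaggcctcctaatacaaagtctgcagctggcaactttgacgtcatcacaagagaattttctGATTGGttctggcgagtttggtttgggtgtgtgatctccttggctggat
Each window held the element once, beginning 44, 62, 58 and 49 bases before the gene start in H2-Oa, H2-DMb1, H2-Ob and H2-Aa. On either strand it occurred in 10.9% of 32851 windows of the same length, and in 12.6% of the 27025 genes with a window. It occurred in 6 of the 24 genes with a window that were called higher, these 4 included, and in 4 of the 17 that were called lower. A match describes the letters of the window and shows no binding.

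Genes of homing and adhesion had 2 of 17 tested members called higher, against 29 of all 5027 genes. Itgb7, the integrin beta chain that pairs with alpha 4 for entry into gut lymphoid tissue, read 1011, 774, 1813, 1574 and 1359.7 in mature B cells and 292, 187, 95.5, 499.5 and 323 in immature B cells. The highest other preparation stood at 499.5, and the mean difference to immature B cells was 3.995-fold (adjusted p = 0.00294). Ccr7, the chemokine receptor for lymph node entry, read 2348, 1548, 1245, 1478 and 1424 in mature B cells. Small pre-BII cells read 790.5, 599, 465, 530.4 and 684 and immature B cells 479, 308, 526, 569 and 851, without overlap with the mature cells. The difference of mature B cells to small pre-BII cells was 2.60-fold and to immature B cells 3.03-fold (adjusted p = 0.00883). Ccr7 was highest in mature B sort 1, and its adjusted p was 0.0351 without that preparation.

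Bcl2, which blocks cell death at the mitochondrion, was the 1 called higher of 12 tested survival genes, against 29 of all 5027 genes. It read 609.9, 349, 549, 674 and 388 in mature B cells, with 1 pre-BI and 1 large pre-BII preparation above noise and a highest other value of 462 in pre-BI cells, which overlapped the mature range (adjusted p = 0.00609, 1.79-fold to pre-BI cells). A second Bcl2 probe set, l31532_at, read -337 to 324 in mature B cells and -273 to 210.0 elsewhere and was not called. Jak2, a kinase of cytokine receptors, was called from 1 of its 4 probe sets at 213 to 696 in mature B cells (adjusted p = 0.00788), and is named outside the naming rule. Of the lists of B cell receptor signalling (15 tested genes), NF-kB and immediate early genes (17), class I presentation (11), interferon-induced genes (15) and B lineage transcription factors (15), 0 genes were called in either direction against all 4 populations.

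Further called genes belonged to none of these lists. Man1a, a Golgi mannosidase that trims N-glycans, read 2786, 2541, 2558, 2420.3 and 2541 in mature B cells and 65.8 to 808 elsewhere, 4.23-fold above immature B cells (adjusted p = 6.17e-04). Abca1, which exports cholesterol, read 3997, 3591, 4157, 4065 and 4635 in mature B cells and 1245, 1313, 1300.1, 1569 and 1309 in small pre-BII cells, the next highest population, a 3.04-fold difference (adjusted p = 1.22e-06), while a second Abca1 probe set was under noise in every preparation. Macf1, a linker of microtubules and actin, read 7832, 11663, 6309, 7555 and 7767 in mature B cells and 3581, 4185, 3655, 3297 and 3479 in immature B cells (2.22-fold, adjusted p = 0.0282), a call lost without any 1 of mature B sorts 1, 3, 9 and 11 and immature B sorts 1, 8, 9 and 11 (adjusted p up to 0.103). For these 3 genes mature B cells lay above all other preparations.

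Rflnb, a partner of filamin, averaged 1569.9 ± 468 in mature B cells, against 435 ± 88.3 in pre-BI cells, the nearest population (3.52-fold, adjusted p = 4.16e-04), and was under noise in small pre-BII and immature B cells. Arhgef3 averaged 2095 ± 521 in mature B cells and 689 ± 169.9 in immature B cells (3.05-fold, adjusted p = 4.89e-04). Pacs1, a sorting adaptor of the trans-Golgi network, averaged 1064 ± 485 in mature B cells and 385 ± 166 in pre-BI cells (2.66-fold, adjusted p = 0.0169, and 0.0687 without mature B sort 9). The tetraspanin Tspan32 averaged 1608 ± 484 in mature B cells and 592 ± 142 in immature B cells (SD, n = 5 mature, 6 pre-BI and 5 immature preparations throughout), 2.65-fold with adjusted p = 0.0367. The Tspan32 call was lost without any 1 of mature B sorts 3, 8, 9 and 11 and immature B sorts 1, 2, 8 and 11 (adjusted p up to 0.127), and with sort number as a block (adjusted p = 0.0545).

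B4galnt1, which makes gangliosides, Rap1gds1, an exchange factor for small GTPases, and Osbpl5, a lipid transfer protein, were called at 2.46-fold, 2.31-fold and 2.19-fold over their nearest populations (adjusted p = 0.00686, 0.00578 and 0.00934). A second B4galnt1 probe set was not called (1.42-fold to immature B cells, adjusted p = 0.771). B4galnt1 and Osbpl5 had mature values within the range of other preparations. Fam102a, Herc4 and Snx14, named outside the naming rule to complete the list, were called at lower bounds of 1.29 to 1.67-fold from levels near the noise limit. Gm11346, named for the same reason, was called at 1.15-fold, which is no bound since 1 pre-BI preparation exceeded the limit. Herc4 was lost without mature B sort 8 (adjusted p = 0.0502), Gm11346 without mature B sort 11 (adjusted p = 0.0796) and Snx14 in 7 of the 26 fits without 1 preparation (adjusted p up to 0.144). Snx14 was also lost with sort number as a block (adjusted p = 0.0739). The 10 probe sets without a symbol held bright signals too: m18184_s_at read 8745, 10073, 10781, 11663 and 8900.2 in mature B cells and 1252, 2082, 1640.4, 2212 and 2485 in immature B cells (5.30-fold, adjusted p = 6.99e-05), and m25324_s_at, highest after mature in pre-BI cells, was 4.43-fold above those (adjusted p = 1.57e-04).

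The precursor gene Vpreb3 had the largest fall in mature B cells. It encodes a protein related to the surrogate light chain, which stands in for the light chain in pre-B cells. Its level was 63.1, 358, 1296, 1779.6 and 492 in the mature B preparations. It was 5363 to 8900.2 among pre-BI, 5670.0 to 9962 among large pre-BII, 9962 to 14049.9 among small pre-BII and 5941 to 11224 in immature B cells. The mature values differed widely among themselves, from under the noise limit in sort 1 to 1779.6 in sort 9, yet each lay under every other preparation. The level was 11.3-fold lower than in large pre-BII cells, the nearest population (log2 difference -3.50 ± 0.56 SE, adjusted p = 4.19e-06), and 13.0-fold lower than in immature B cells.

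Myb and Cd93 fell nearly as far. Myb, a transcription factor of dividing progenitors, read 175, 208, 650.1, 476 and 439 in mature B cells, 6279.7 to 9962 among pre-BI, 4815 to 7089.6 among large pre-BII, 10073 to 18089 among small pre-BII and 2656 to 4832 in immature B cells. It was 9.27-fold lower in mature than in immature B cells (adjusted p = 7.33e-09), and a second Myb probe set, from the b set, read -171 to 538 in mature B cells and -876 to 202 elsewhere and was not called (adjusted p = 0.99). Cd93, the surface receptor recognised by the AA4.1 antibody that marks immature B cells, read 188, 713, 481, 679 and 708 in mature B cells and 5124, 4465, 4428, 4534 and 3988 in immature B cells. The pre-B populations read 6383 to 11994. No mature B preparation came near the range of the others, and Cd93 was 8.50-fold lower than in immature B cells (adjusted p = 7.33e-09).

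**Figure D2:**
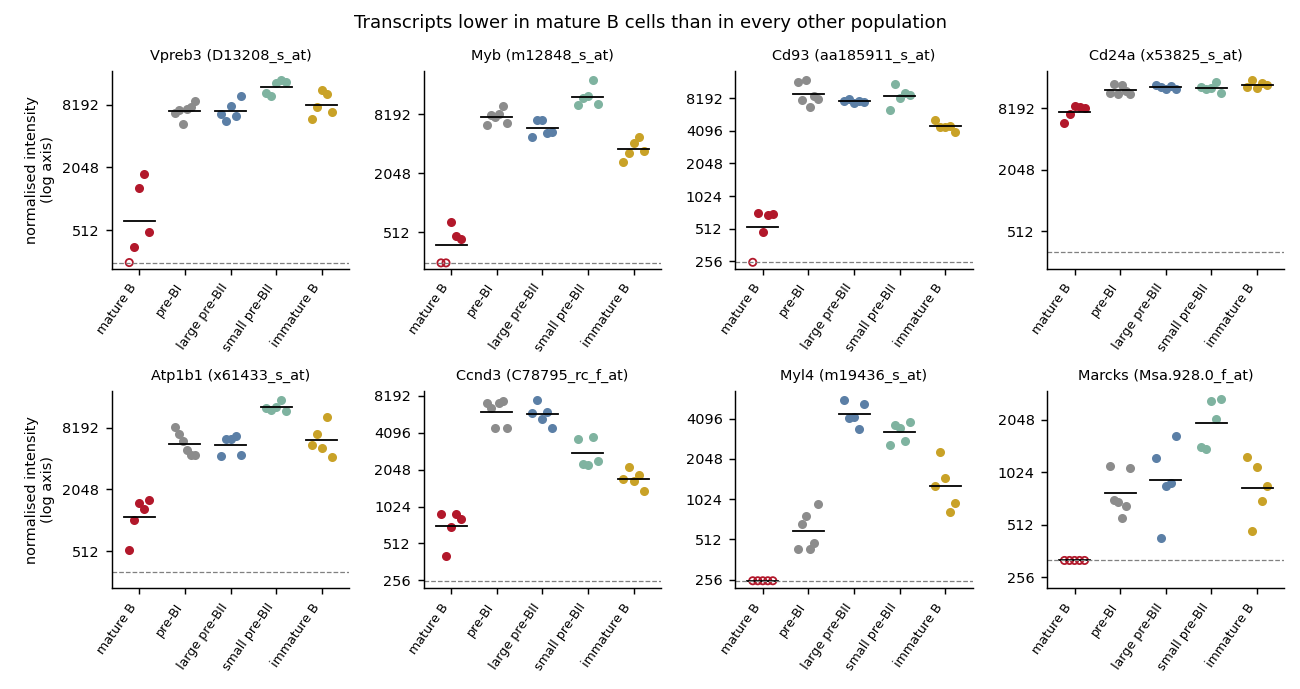
Normalised intensity (log axis) of 8 transcripts called lower in mature B cells than in every other population, in each preparation of the 5 populations, drawn as in the plot of higher transcripts. The mature B points lie under all other points in each of these 8 panels, all 5 are under the noise limit for Myl4 and for the Marcks probe set shown, and Cd24a differs least.

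Other progenitor genes were lower in mature B cells than in pre-B cells, without passing against immature B cells. Of the 19 tested genes of surrogate light chain, recombination and progenitors, 12 were lower in mature B than in pre-BI cells, 10 than in large pre-BII cells, 9 than in small pre-BII cells and 3 than in immature B cells, and those 3 were Vpreb3, Myb and Cd93. Of all 5027 genes 417, 394, 180 and 53 were lower in these comparisons. The median log2 differences of the 19 were -2.95, -2.06, -1.66 and -0.21. Igll1, Dntt, Rag1 and Kit were above the noise limit in 0 of 5 mature B preparations and Vpreb1 in 1. Of 27 replication genes and 28 genes of mitosis, 19 and 24 were lower in mature B than in pre-BI cells, and 0 of each were lower than in immature B cells.

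Cd24a, Atp1b1 and Marcks fell in mature B cells. Cd24a, the heat-stable antigen by which B cell stages are often sorted, remained bright and read 5894, 7222, 8573, 8391 and 8131 in mature B cells, against 12845 to 15541 in immature B cells and 11128 to 14660.1 in pre-B cells. All mature values were below all others, and the smallest difference, to pre-BI cells, was 1.62-fold (adjusted p = 1.16e-05). The call depended on the scaling: in place of quantile normalisation, trimmed-mean scaling gave a log2 difference of -0.43 (adjusted p = 0.262) and 75th-percentile scaling one of -0.63 (adjusted p = 0.357). Atp1b1, the beta subunit of the sodium pump, read 521, 1040.2, 1502, 1312 and 1599.9 in mature B cells and 4244 to 15541 elsewhere, 5.01-fold lower than in large pre-BII cells (adjusted p = 6.82e-07). Marcks, a membrane-bound substrate of protein kinase C, was called on all 3 of its probe sets, 1 of them, aa546670_s_at, lost without any 1 of the mature B preparations or of immature B sorts 1, 2, 8 and 9 (adjusted p up to 0.0875). Its b set probe set was under noise in all 5 mature B preparations and averaged 801 for pre-BI, 1013 for large pre-BII, 2035 for small pre-BII and 874 in immature B cells, at least 2.43-fold (adjusted p = 7.58e-05).

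Zfpm1, a cofactor of GATA factors known as FOG1, was under noise in all 5 mature B preparations. It averaged 1540.2 ± 715 in the pre-BI, 3400.2 ± 1379.7 in the large pre-BII, 2448 ± 858 in the small pre-BII and 863 ± 335 in immature B cells (SD, n = 6, 5, 5 and 5), so mature B cells were at least 3.22-fold below the nearest (adjusted p = 6.20e-05). A second Zfpm1 probe set read -489 to -96.3 in mature B cells and -341 to 267 elsewhere and was not called. Ccnd3, a cyclin of the G1 phase, read 892, 408, 702, 894 and 812 in mature B cells and 1707, 2135, 1658, 1839 and 1359.7 in immature B cells (2.41-fold lower, adjusted p = 0.00129), with pre-BI cells highest at a mean of 6180.0. A second Ccnd3 probe set averaged 1115 in mature B cells, 1.70-fold below immature B cells, and did not pass (adjusted p = 0.527). Hes6, a repressor of the HES family, averaged 504 ± 225 in mature B cells and 1394 ± 423 in immature B cells (SD, n = 5 each, 2.85-fold lower, adjusted p = 0.00471), with overlap between mature sort 3 and single preparations of other populations. A second Hes6 probe set, from the b set, read -300 to -30.1 in mature B cells and -159 to 549 elsewhere and was not called (adjusted p = 0.245). Rgs2, which turns off G protein signals, averaged 433 ± 215 in mature B cells and 1188 ± 521 in pre-BI cells, the nearest (2.53-fold lower, adjusted p = 0.0111, and 0.0511 without mature B sort 9), and was highest in small pre-BII cells at 4806.

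Myl4, a myosin light chain best known from embryonic muscle, read 31.9, 145, 200.4, 78.6 and 74.4 in mature B cells, all under noise, and 3405 to 5659 in large pre-BII cells, where it was highest. It was at least 2.37-fold below pre-BI cells and at least 5.09-fold below immature B cells (adjusted p = 3.71e-07). Pafah1b3, a subunit of a phospholipase that inactivates platelet-activating factor, read 2503, 1704, 1783, 2129.7 and 2007 in mature B cells, 3209 to 4757 in pre-BI cells and 4295 to 5634 in immature B cells (2.01-fold below pre-BI cells, adjusted p = 5.36e-07). Ptgr1, a prostaglandin reductase, was under noise in all mature B preparations and averaged 445 in immature B cells but 4221 to 5498 in the 3 pre-B populations. It was named after its values had been seen, and its second probe set was also lowest in mature B cells without passing (adjusted p = 0.204).

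The other named genes had smaller differences. Lrmp, a lymphoid membrane protein of the endoplasmic reticulum, Smdt1, a part of the mitochondrial calcium uniporter, Rell1 of the TNF receptor-like RELT family, and Psmd8, a proteasome subunit, were 2.31-fold, 2.30-fold, 2.05-fold and 1.76-fold lower in mature B cells than in their nearest populations (adjusted p = 0.017, 0.0117, 0.00495 and 0.00241). A second Psmd8 probe set overlapped other populations and was not called (adjusted p = 0.976). Lrmp was lost without mature B sort 1 or immature B sort 1 (adjusted p up to 0.0591), Nudt1 without immature B sort 2 or 8 (0.0547) and Adssl1 without immature B sort 2 or 9 (0.0612). Srsf3, Lgals1, Grn, Klhl9, Nudt1, Adssl1 and Cox6a2 complete the list outside the naming rule. Grn, which encodes progranulin, passed at adjusted p = 0.04998, and its other 2 probe sets were not called. On 1 of these mature B cells were not lowest, at a mean of 1120 against 1080 in pre-BI cells. On the other the mature values (461 to 860) overlapped other preparations, which went down to 384. The Grn call was lost in 20 of 26 fits without 1 preparation and with the range of sorts as a block (adjusted p = 0.0512). Srsf3, a splicing factor, was lost in 10 of 26 such fits and with sort number as a block (adjusted p = 0.0589). On the called Cox6a2 probe set both mature B and large pre-BII cells were under noise in every preparation, so no fold is given. Its other probe set, u08439_f_at, was under noise in all mature B preparations and above it in 2 of large pre-BII cells, and was not called (adjusted p = 0.675).

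**Figure D3:**
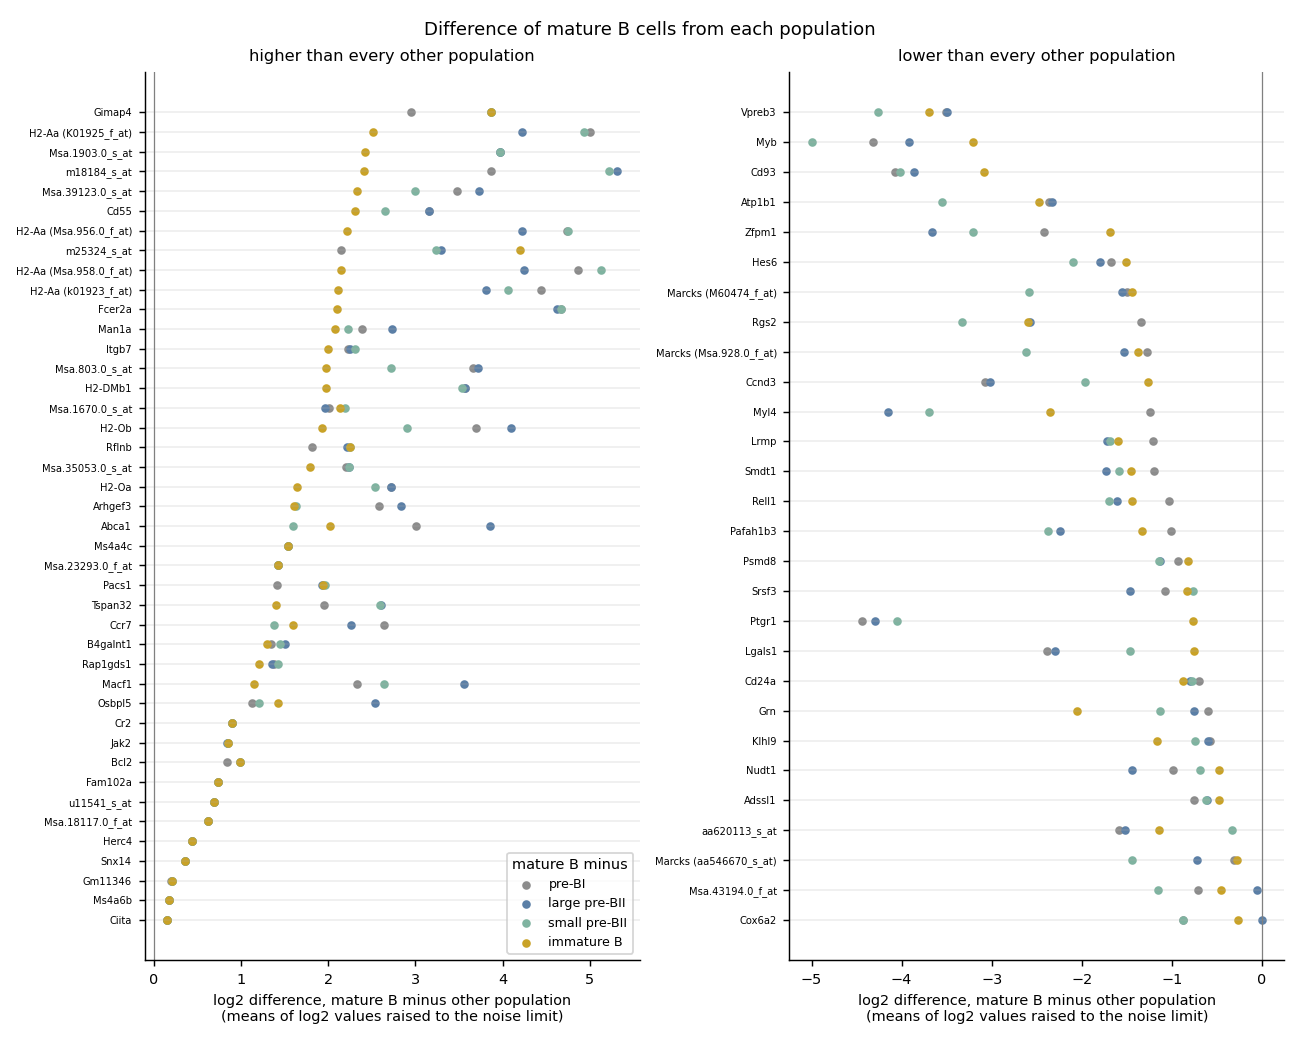
Log2 difference of mature B cells to each of the 4 other populations for the 42 probe sets called higher (left) and the 28 called lower (right), 1 row per probe set ordered by the difference to the nearest population, from means of log2 values raised to the noise limit. Points coincide where populations are all under the limit. Immature B cells (gold) are counted as nearest for most of the higher probe sets, including those with all 4 others under the limit. The rows run from Gimap4 at the top with 2.95 to pre-BI cells down to Ciita with 0.15.

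The population counted as nearest to mature B cells was immature B cells for 31 of the 42 higher probe sets. It was pre-BI cells for 7, and small and large pre-BII cells for 2 each. Where all 4 other populations were under the noise limit, as for Cr2, Ms4a4c, Fam102a and Ciita, no nearest one could be told. Such ties were counted as immature B cells and are among the 31. For the 28 lower probe sets the nearest was immature B cells in 12, pre-BI cells in 10, large pre-BII cells in 4 and small pre-BII cells in 2. The highest population was small pre-BII in 13. The median fold to the nearest population was 3.04 for higher and 2.03 for lower probe sets, and 31 of 42 and 15 of 28 differed at least 2-fold. Of the 42, 11 were also higher in immature B than in small pre-BII cells and 31 did not pass in that comparison. Of the 28, 7 were lower and 1 was higher in immature B than in small pre-BII cells, and 20 did not pass. The comparison of immature with small pre-BII cells shares its immature preparations with the 4-way rule.

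Taken 1 population at a time, mature B cells had the most calls against large pre-BII and pre-BI cells. Against large pre-BII cells 549 probe sets were higher (5.37%) and 586 lower (5.73%), and against pre-BI cells 491 were higher (4.8%) and 603 lower (5.9%). Against small pre-BII cells 233 were higher (2.28%) and 240 lower (2.35%), and against immature B cells 65 were higher (0.635%) and 73 lower (0.714%). The comparison with immature B cells, which called the fewest, thus limited the number that could be called against all 4.

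Within each range of sorts the differences could be read again, with fewer preparations. In sorts 8 to 11, with 3 mature B preparations, 19 of the 42 and 14 of the 28 were called, and in sorts 1 to 3, with 2, 4 of each were. The difference of Gimap4 to its nearest population was 2.99 in sorts 8 to 11 and 2.85 in sorts 1 to 3 on the log2 scale of the fit, and that of Fcer2a 2.30 and 1.81. The fall of Vpreb3 was -2.93 in sorts 8 to 11 and -5.11 in sorts 1 to 3, that of Myb -2.99 and -3.94, and that of Cd24a -0.56 and -0.90. With the range of sorts as a block 42 of the 42 and 27 of the 28 were called. The precision of each of these values is limited by how many arrays there were.

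**Figure D4:**
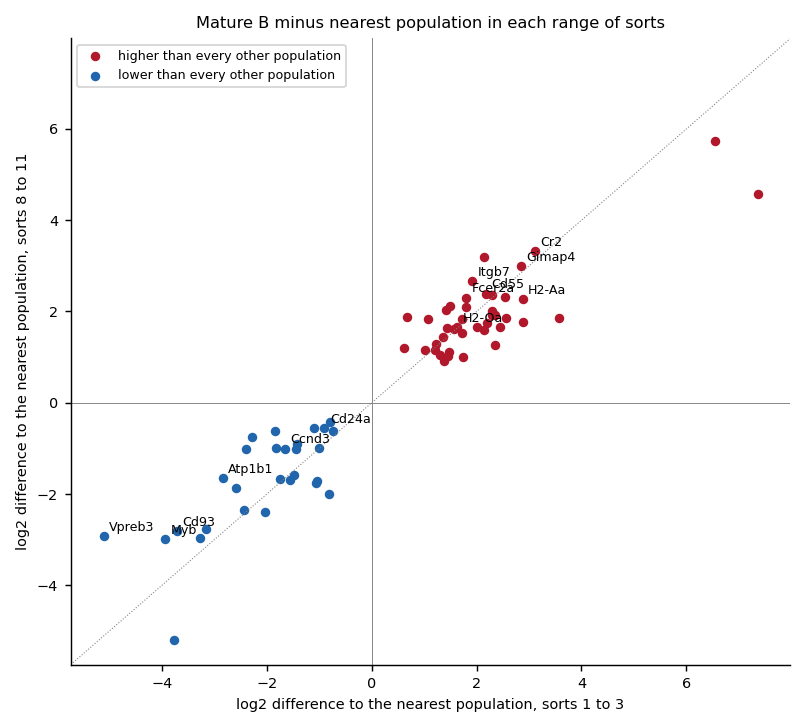
Log2 difference of mature B cells to the nearest population within sorts 1 to 3 (horizontal axis, 2 mature B preparations) and within sorts 8 to 11 (vertical axis, 3 mature B preparations), on the scale of the fit, for the 42 probe sets called higher (red) and the 28 called lower (blue). The dotted line marks equal values. All 42 are above 0 and all 28 below 0 on both axes, a side that the calls from the same preparations largely fix.

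The genes nearest to the threshold had smallest log2 differences of either sign in the fit. Inside lay Snx14 (adjusted p = 0.0399, log2 difference 1.29), H2-Oa (0.0476, 1.65) and Grn (0.04998, -0.60). Outside lay Snrnp70 (0.054, -2.22), Gad1 (0.0588, 2.96) and Ppp1r14b (0.0605, -4.23), which were not called and were named for this position alone. These sizes are on the scale of the fit, whose floor lies below the noise limit. Mature B cells averaged 103 for Snrnp70 and -82.2 for Ppp1r14b, both under that limit, so their sizes depend on the floor.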

How the data were processed

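The intensity values were computed and deposited by the authors as 1 table per array set, with 6584 and 6595 probe sets, on a linear scale with negative values. The sources used here do not give how they were scanned, summarised and scaled. Groups and sort numbers came from the titles and descriptions. Of the first set, the array with a second number in its title for mature B sort 1 equalled that of sort 11 in every value and was left out, so 54 of 55 arrays were kept, and second arrays of a preparation were averaged.

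The 110 control probe sets were removed and each table was quantile-normalised. A floor was set at the 40th percentile of each table (87.6 and 6.89), log2 was taken, and probe sets whose level exceeded it in at least 5 of 26 preparations (5019 and 5210) entered the test. All preparations entered 1 fit with limma 3.58.1 in R 4.3.3 (lmFit, eBayes with a trend), with 4 contrasts of mature B minus another population, each adjusted by Benjamini-Hochberg. Symbols came from the platform annotation, where 7542 of 13069 probe sets had 1 symbol, 224 several and 5303 none, and none of the called symbols was changed by the RefSeq table.

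The members, gene lists and tests were chosen with earlier results of these data known, so no list is independent support. Named genes were the 20 largest differences among higher genes with all 5 mature B preparations above noise, the 15 largest among lower genes with all 4 other means above noise, called list members, 5 marker and gate genes, and 2 genes of each other cell type, while those named outside the rule are said to be so. The labels call the replicate number a sort number. Deviations from the population means were correlated between mature B and other preparations of equal number. The r was 0.116 to 0.205 for immature B cells (4 of 4 over 0.1) and -0.00767 to 0.169 for small pre-BII cells (3 of 4). It was 0.0819 to 0.287 for large pre-BII (1 of 3) and 0.0596 to 0.242 for pre-BI cells (3 of 4). Every pair exceeded 0.1 for immature B cells only, though the highest values were with large pre-BII and pre-BI cells. The main fit used no pairing, and the block on sort number covered all populations. In simulated data with 10229 probe sets the 4-way rule recovered 18% of 2-fold rises, 12% of 2-fold falls and 76% of 4-fold changes in either direction, with 0 false calls. Each size was given to 50 probe sets with means above the noise limit, and all others had 1 mean in the 5 populations. Probe sets that differ from some populations but not from all 4 were not simulated, so the 0 does not speak to false calls among them. Recovery of dimmer probe sets was not simulated either.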

Additional observations from a re-analysis of the deposited data

Results flagged for a closer look

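Values of 1 preparation far from the others of its population were found in 9 of 140 groups checked (mature B and the nearest population of each of the 70 probe sets), where chance gives about 1 in 20. Tspan32 read 754 in mature B sort 1, against 1707 to 1921 in the other mature B preparations. Ccr7 read 2348 in mature B sort 1, against 1245 to 1548. Macf1 read 11663 in mature B sort 3, against 6309 to 7832. Herc4 read 732 in mature B sort 8, against 215 to 329, and Grn read 687 in mature B sort 9, against 404 to 479. In other populations, Abca1 read 1569 in small pre-BII sort 9, against 1245 to 1313, and Lrmp read 1696 in pre-BI sort 1, against 668 to 912. The unnamed probe set aa620113_s_at read -148 in small pre-BII sort 1, against 271 to 399.6, and Cox6a2 read 31.1 in large pre-BII sort 1, against 142 to 184.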

How the results depend on the processing

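The counts of 42 higher and 28 lower probe sets, and the 138, 473, 1135 and 1094 calls against immature B, small pre-BII, large pre-BII and pre-BI cells, moved by over 1.5 times under few settings. On the values as deposited, without normalisation, they were 15, 11, 48, 161, 538 and 503. With a floor at the 25th percentile 24 were higher, and with a floor at the noise limit 69 were, 35 of them among the 42. Adjusting the largest of the 4 raw p-values once gave 18 lower. Trimmed-mean scaling ended the calls of H2-Oa, Srsf3, Cd24a and Grn, and 75th-percentile scaling those of H2-Oa, Tspan32, Osbpl5, Srsf3 and Cd24a. Within sorts 1 to 3 the 6 counts were 4, 4, 14, 98, 341 and 366, from fewer samples, and within sorts 8 to 11 the first 4 were 22, 16, 63 and 296. Leaving out 1 preparation gave 37 to 44 higher and 23 to 35 lower, and 114 to 152, 397 to 488, 1011 to 1187 and 961 to 1147 calls against immature B, small pre-BII, large pre-BII and pre-BI cells. In all 26 such fits 33 of the 42 and 21 of the 28 remained called. Sort number as a replicate block gave 45 higher and 37 lower, with 40 of the 42 and 27 of the 28 among them, so that apart from Tspan32, Snx14 and Srsf3 none of the 70 lost its call with that block. The shared array taken as sort 1 in place of sort 11 gave 40 and 26, and left out of both it gave 38 and 26. Recomputed values of the 70 called probe sets, Ptprc and Ighm were counted over all settings, the 26 fits without 1 preparation included. Of these values 2625 kept their side of the threshold, 312 lost it and none changed direction. Apart from those 26 fits and the fits within a range of sorts, 9 of the 42 and 6 of the 28 kept their call in every setting that tested them. On deposited values 46 of the 70 lost their call, and with the floor at the 25th percentile 23 did. Of all values, 40.02% (first set) and 20.1% (b set) were above the noise limit, so differences under it could not be seen, and the cause of the changes on deposited values was not tested.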
